A study of Mus with 96 samples.

Results

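The livers of mice without Bmal1 in hepatocytes (Hep-Bmal1KO) were compared with those of their littermate controls (Hep-Bmal1WT) on normal chow (NC) at ZT10, 10 hours after lights on and near the end of the 12-hour light phase. The 8 libraries, 4 per genotype, were taken from the 96 of the series by the genotype, diet, and time in their titles. All mice were homozygous for the floxed Bmal1 allele on a C57BL/6J background, and Hep-Bmal1KO mice also carried Cre under the albumin promoter (Alb Cre/+), which Hep-Bmal1WT mice lacked, so the presence of Cre and the loss of Bmal1 cannot be told apart. The paper describes the deletion as specific to hepatocytes, and whether other cells of the liver keep the gene was not tested here. The mice were 8 to 10 weeks old, had been on NC for 2 weeks of the experiment, and were 2 males (replicates 1 and 2) and 2 females (replicates 3 and 4) per genotype. NC mice of the other ZTs were used for comparison. So were ZT10 mice of the same genotypes, age range, and numbers per sex, fed a choline-deficient high-fat diet (cdHFD) for 2 weeks. RNA was measured by BRB-seq, in which barcoded samples are pooled and only the 3′ end of each mRNA is read, and levels are given in CPM, counts of a gene scaled to a common library size with TMM factors, which correct for library composition. Because the whole liver was sampled, fewer cells of a type and less RNA per cell cannot be told apart.

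BMAL1, the product of the gene listed as Arntl, pairs with CLOCK or NPAS2 and activates genes that carry E-box elements, among them the Period and Cryptochrome genes, whose products repress the pair. A second loop runs through the REV-ERB receptors Nr1d1 and Nr1d2, which BMAL1 activates and which repress Arntl, Npas2, Clock, Cry1, and Nfil3. The PAR bZIP factors Dbp, Tef, and Hlf carry the rhythm on to genes of liver metabolism, where NFIL3 opposes them. In the liver of a mouse that eats at night, Dbp and the REV-ERB receptors are abundant in the light phase and Arntl is low at its end.

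The libraries held 5128150 to 6074539 counts on genes in Hep-Bmal1WT and 4759056 to 6845207 in Hep-Bmal1KO livers, and the sex labels fitted the counts of sex-linked genes in 8 of 8. Replicate 3 of Hep-Bmal1KO, a female and the lowest mouse number of its group, went against its label. On a line from the other Hep-Bmal1WT libraries (0) to the other Hep-Bmal1KO libraries (1), drawn through 10 clock genes, it lay at -0.089, whereas the remaining Hep-Bmal1KO libraries lay at 0.98 to 1.14 and the Hep-Bmal1WT libraries at -0.068 to 0.19. The 10 genes were Arntl, Clock, Npas2, Per1, Per2, Cry1, Cry2, Nr1d1, Nr1d2, and Dbp. With the 100 genes that best separated the genotypes at the other ZTs on NC, it lay at -0.052, the remaining Hep-Bmal1KO libraries at 0.79 to 0.99, and the Hep-Bmal1WT libraries at 0.33 to 0.52. A library was called nearer the other genotype where both measures placed it past the middle of the line, which of these 8 held for this library alone. The tests were therefore run on 4 against 4 libraries and on 3 against 4 without this library. Where a log2 fold change or a CPM comparison of 3 Hep-Bmal1KO livers is given alone it is that of 3 against 4, and the loss of a call with all 8 libraries is stated beside it or with its list. Since the library was singled out by its expression, the second comparison is helped by that choice. All Hep-Bmal1WT libraries stood in 1 column of the library plate and all Hep-Bmal1KO libraries in another, so plate column and genotype cannot be told apart. Mitochondrial transcripts took 8.51% to 9.48% of counts in Hep-Bmal1WT and 6.36% to 8.44% in Hep-Bmal1KO livers other than replicate 3, which had 10.2%, so that without it the groups did not overlap. Reads outside any gene took 12.2% to 13.7% of aligned reads in Hep-Bmal1WT and 10.9% to 12.3% in Hep-Bmal1KO livers, the highest of these in replicate 3. The part of both measures in the results was not tested.

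The targeted gene Arntl (ENSMUSG00000055116, chromosome 7, 113178471 to 113314126 in GRCm38.p6) was at 1.34, 0.779, 0.21, and 0.665 CPM in Hep-Bmal1WT replicates 1 to 4, at 8.69, 6.29, and 7.85 CPM in Hep-Bmal1KO replicates 1, 2, and 4, and at 0.253 CPM in Hep-Bmal1KO replicate 3. The 3 Hep-Bmal1KO libraries lay above every Hep-Bmal1WT library, and replicate 3 lay among the Hep-Bmal1WT libraries. The log2 fold change, Hep-Bmal1KO against Hep-Bmal1WT, was 3.30 ± 0.43 (SE; adjusted p = 8.16e-05, edgeR quasi-likelihood test with Benjamini-Hochberg adjustment) for 3 against 4 and 3.02 ± 0.64 (adjusted p = 0.033) for 4 against 4. The counts come from the 3′ end of the transcript, and whether these reads reach the floxed part is not given in the sources used here, so the count is no check of the deletion.

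Of the 15548 genes tested, 157 were higher (1.01%) and 74 lower (0.476%) in Hep-Bmal1KO livers at an adjusted p under 0.05 in the comparison of 4 against 4, 1.49% in either direction. Without replicate 3, 777 genes (5% of those tested) were higher and 750 (4.82%) lower, 9.82% in either direction. All 231 genes called in the first comparison were called in the same direction in the second, and they made up 15.1% of its 1527 calls. The log2 fold change was at least 1 in size for 265 of the 777 and for 295 of the 750. In 1259 of the 1527 genes (82.4%) the log2 CPM of replicate 3 was nearer the mean of Hep-Bmal1WT than that of the other Hep-Bmal1KO livers. This follows in part from the choice, since the library was left out for its likeness to Hep-Bmal1WT and the genes were called without it. The ranges of CPM did not overlap between the groups for 827 genes (5.32%) with 4 against 4 and for 2715 (17.5%) with 3 against 4 libraries.

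The males alone, a comparison of 2 against 2 that does not hold the discordant library and was added after the data had been seen, gave 325 higher and 309 lower genes, whereas the females alone, where it is 1 of 2 Hep-Bmal1KO libraries, gave 0 by edgeR's quasi-likelihood test with 758 at an unadjusted p under 0.05. Leaving out any library other than replicate 3 of Hep-Bmal1KO brought the calls of the 4 against 4 comparison down to between 4 and 39 higher and between 5 and 42 lower, the fewest higher without Hep-Bmal1WT replicate 1 and the fewest lower without Hep-Bmal1KO replicate 1. Without a term for sex it called 16 and 3 genes. The 3 against 4 comparison fell to 368 higher and 387 lower genes without Hep-Bmal1KO replicate 4, the remaining female of its genotype, to 457 and 459 without Hep-Bmal1WT replicate 1, to 520 and 429 without Hep-Bmal1KO replicate 1, and to 605 and 493 without Hep-Bmal1WT replicate 2.

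**Figure D1:**
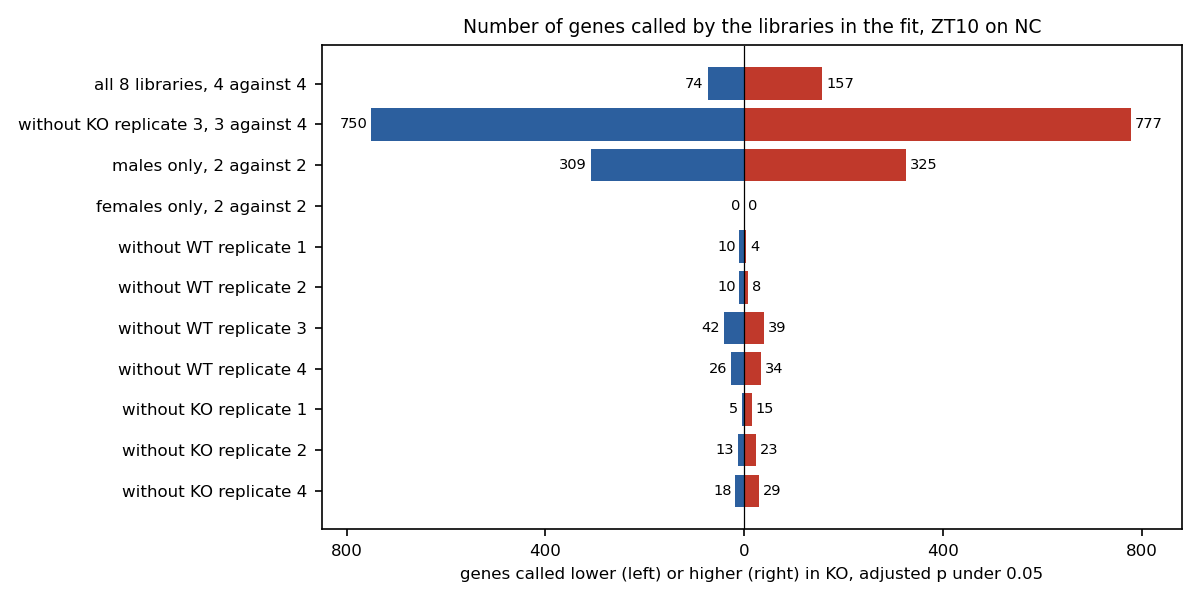
Number of genes called lower (left, blue) and higher (right, red) in Hep-Bmal1KO against Hep-Bmal1WT livers at ZT10 on NC, by the libraries in the fit (edgeR, adjusted p under 0.05). The counts were 157 higher and 74 lower with all 8 libraries, 777 and 750 without KO replicate 3, and 325 and 309 in the 4 males.

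Among the 44 clock genes tested, the core genes and known outputs in liver, 11 were higher and 6 lower with 4 against 4 libraries, against 1.01% and 0.476% of all genes. With 3 against 4, 13 were higher and 25 lower, against 5% and 4.82%. Replicate 3 was placed in part by 10 of these genes, so the 3 against 4 counts are helped by that choice. The clock lists were also chosen with earlier results of these data known. In males alone 12 were higher and 20 lower, against 325 and 309 of all 15548 genes tested. Of the 4 activator genes, 3 rose without replicate 3 and 2 with it. Npas2, a partner of BMAL1, was at 0.668, 0, 0.631, and 0 CPM in Hep-Bmal1WT and at 17.6, 13.8, and 12.3 CPM in Hep-Bmal1KO replicates 1, 2, and 4, with 0.253 CPM in replicate 3. Replicate 3 lay among the Hep-Bmal1WT libraries and the others were apart from them. The log2 fold change was 5.35 ± 0.48 (adjusted p = 4.15e-07, edgeR) for 3 against 4 and 5.06 ± 0.80 (adjusted p = 0.0063) for 4 against 4, a fitted value that depends on the prior count because 2 Hep-Bmal1WT libraries held no read. Clock, the other partner, was at 10.5, 12.1, 9.25, and 14.2 CPM against 29.3, 33.8, and 22.9 CPM, with 7.85 CPM in replicate 3. It rose by 1.25 ± 0.19 without replicate 3 (adjusted p = 4.35e-04) and missed the threshold with it (adjusted p = 0.11). The paralog Arntl2 was at most 1.11 CPM in all 8 libraries and did not pass the test in either comparison.

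Cry1 and Nfil3, both targets of the REV-ERB receptors, also rose. Cry1, the cryptochrome whose product represses CLOCK and BMAL1, was at 6.01, 6.04, 6.94, and 14.4 CPM in Hep-Bmal1WT and at 36.8, 46.6, and 42.9 CPM in the 3 Hep-Bmal1KO livers, with 6.83 CPM in replicate 3. Its log2 fold change was 2.39 ± 0.23 (adjusted p = 4.41e-06) and, with 4 against 4, 2.01 ± 0.45 (adjusted p = 0.043). Nfil3 was at 1.78, 4.09, 3.58, and 2.88 CPM against 11, 14.9, and 13.6 CPM, and here replicate 3, at 6.58 CPM, lay between the groups, which did not overlap in either comparison. Nfil3 had log2 fold changes of 2.06 ± 0.28 (adjusted p = 1.59e-04) and 1.91 ± 0.32 (adjusted p = 0.013). Cry2, the second cryptochrome, had 0.04 ± 0.17 and Rora, an activating receptor of the second loop, -0.06 ± 0.13, neither past the threshold in either comparison.

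The REV-ERB receptors were low in the same livers. Nr1d1 was at 50.3, 51.2, 44.8, and 34.6 CPM in Hep-Bmal1WT and at 6.7, 8.81, and 10.4 CPM in Hep-Bmal1KO replicates 1, 2, and 4, and Nr1d2 at 54.5, 52.8, 63.3, and 65.8 CPM against 8.69, 10.3, and 12.7 CPM. Replicate 3, with 51.9 and 72.1 CPM, was above every Hep-Bmal1WT library in both. The log2 fold changes without it were -2.41 ± 0.19 for Nr1d1 (adjusted p = 8.10e-07) and -2.45 ± 0.15 for Nr1d2 (adjusted p = 4.30e-08). With it neither passed the threshold (adjusted p = 0.14 and 0.11).

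Of the 8 Period, Cryptochrome, and other repressor genes, 1 rose and 5 fell without replicate 3, against 5% and 4.82% of all genes, while 1 rose and none fell with it, against 1.01% and 0.476%. Per3 was at 29.8, 21.2, 53.2, and 38.1 CPM against 4.71, 3.36, and 4.81 CPM, with 48.3 CPM in replicate 3, and fell by 2.93 ± 0.25 on the log2 scale (adjusted p = 1.31e-06). Per2 was at 22.9, 22.6, 28.2, and 33 CPM against 16.8, 10.1, and 9.45 CPM and fell by 1.12 ± 0.22 (adjusted p = 0.0039). For Per1 the groups overlapped, with 23.2, 13.4, 40.2, and 37.9 CPM against 8.88, 18, and 21 CPM, and its log2 fold change of -0.68 ± 0.24 missed the threshold (adjusted p = 0.087). Ciart, which represses CLOCK and BMAL1, fell by 3.21 ± 0.32, from 17.6, 19.3, 39.1, and 24.2 CPM to 0.543, 3.15, and 3.85 CPM. The E-box repressors Bhlhe40 and Bhlhe41 had log2 fold changes of -1.03 ± 0.24 (adjusted p = 0.0099) and -5.44 (adjusted p = 0.002), the latter from at most 6.43 CPM and with no read in 2 Hep-Bmal1KO libraries, so that its size depends on the prior count. With all 8 libraries none of these falls passed, as Per3 had a log2 fold change of -1.53 ± 0.51 (adjusted p = 0.16), Per2 -0.71 ± 0.28 (adjusted p = 0.23), Ciart -1.96 ± 0.50 (adjusted p = 0.066), Bhlhe40 -0.90 ± 0.23 (adjusted p = 0.071), and Bhlhe41 an adjusted p of 0.1.

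Dbp (chromosome 7, 45705100 to 45710203) encodes a PAR bZIP factor and was at 255, 196, 318, and 292 CPM in Hep-Bmal1WT livers. In Hep-Bmal1KO replicates 1, 2, and 4 it was at 23.9, 37.8, and 42.6 CPM, and in replicate 3 at 366 CPM, the highest of the 8 libraries. The log2 fold change was -2.88 ± 0.16 (adjusted p = 1.46e-08) without that library and -1.66 ± 0.55 (adjusted p = 0.15) with it. Tef was at 148, 129, 167, and 154 CPM against 54, 64, and 68.1 CPM, with 152 CPM in replicate 3, and fell by 1.25 ± 0.12 (adjusted p = 3.92e-06; 4 against 4 -0.88 ± 0.21, adjusted p = 0.059). Hlf had a log2 fold change of -0.28 ± 0.19 and overlapping groups (adjusted p = 0.42).

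**Figure D2:**
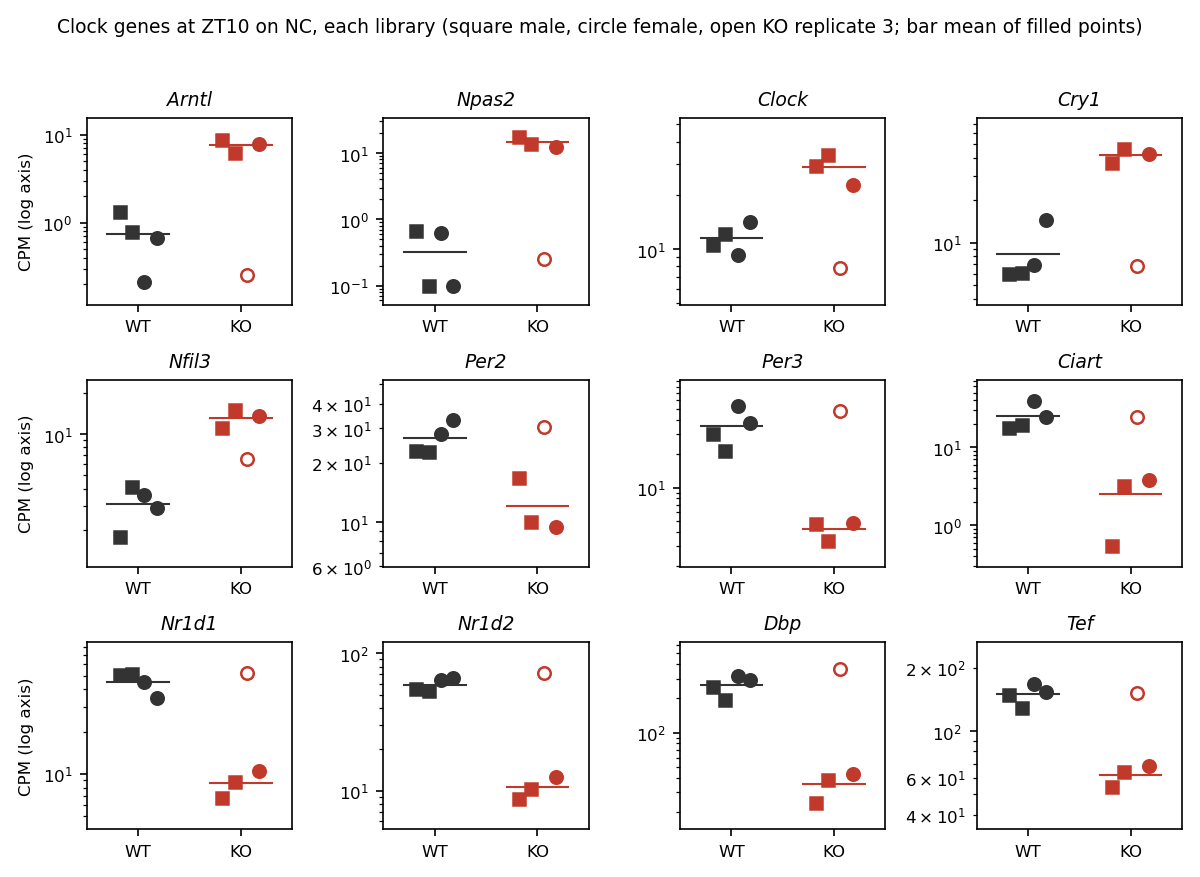
CPM of 12 clock genes in each library at ZT10 on NC (log axis, values under 0.1 drawn at 0.1), Hep-Bmal1WT in black and Hep-Bmal1KO in red, squares for males and circles for females, the open circle for KO replicate 3, and the bar for the mean of the filled points. In every panel but that of Nfil3 the open circle lies within or next to the black points, and the filled red points lie apart from them.

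Clock output genes of the liver moved in both directions. Of 24 members tested, 7 rose and 16 fell without replicate 3, against 5% and 4.82% of all genes (median log2 fold change -1.32, against -0.015 over all genes tested). The ranges of 23 did not overlap, against 17.5% of all genes. With all 8 libraries 6 rose and 6 fell, against 1.01% and 0.476%, and the ranges of 2 did not overlap, against 5.32%. Among those that fell, Usp2, a deubiquitinase that acts on the clock, was at 149, 128, 149.7, and 141 CPM in Hep-Bmal1WT and at 33.5, 32.7, and 47.7 CPM in the 3 Hep-Bmal1KO livers, a log2 fold change of -1.89 ± 0.13 (adjusted p = 1.88e-07). Nampt, the rate-limiting enzyme of NAD salvage, was at 103, 98.6, 126, and 133 CPM against 38.9, 38, and 55.9 CPM (-1.33 ± 0.11). Replicate 3 had 155 and 125 CPM of these, within or just above the Hep-Bmal1WT range. Upp2, a uridine phosphorylase (-1.82 ± 0.14), Rgs16, a regulator of G protein signalling (-4.13 ± 0.47, with no read in 1 Hep-Bmal1KO library), Nrg4, a secreted growth factor (-2.36 ± 0.28), Klf10 (-2.38 ± 0.27), Noct, which encodes nocturnin (-1.31 ± 0.22), Lpin1 (-1.19 ± 0.24), Gpcpd1 (-1.54 ± 0.31), and the mitotic kinase Wee1 (-1.11 ± 0.30) also fell, as did Klf15 (-0.52 ± 0.13) and Tspan4 (-0.62 ± 0.17). Of the falls named here, those of Nrg4, Klf10, and Noct passed with all 8 libraries too, whereas the test missed the threshold for Usp2 (adjusted p = 0.076), Nampt (adjusted p = 0.057), Upp2 (adjusted p = 0.13), Rgs16 (adjusted p = 0.43), Lpin1 (adjusted p = 0.19), Gpcpd1 (adjusted p = 0.18), Wee1 (adjusted p = 0.28), Klf15 (adjusted p = 0.59), and Tspan4 (adjusted p = 0.22). Mthfd1l was the 1 member that missed the threshold (-1.36 ± 0.51, adjusted p = 0.11).

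Among the output genes that rose, Cdkn1a, which encodes the cyclin-dependent kinase inhibitor p21, was at 1.11, 0.974, 1.89, and 2.22 CPM in Hep-Bmal1WT and at 16.7, 25.6, and 17.9 CPM in Hep-Bmal1KO replicates 1, 2, and 4, with 1.01 CPM in replicate 3. It rose by 3.65 ± 0.32 (adjusted p = 1.80e-06), and 3.30 ± 0.61 with all libraries (adjusted p = 0.024). Tubb2a, a tubulin (2.00 ± 0.15), Leap2, the hormone that opposes ghrelin (1.48 ± 0.12), the receptor Ppard (1.51 ± 0.22), Tsc22d3, a target of glucocorticoids (1.13 ± 0.13), and Ypel2 (1.44 ± 0.23) passed the threshold in both comparisons. Dtx4 (2.39 ± 0.30) passed it without replicate 3 alone (adjusted p = 0.054 with 4 against 4).

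The genes with the smallest p in the 4 against 4 comparison included several in which replicate 3 also lay outside the Hep-Bmal1WT range. Ntrk2, the receptor of the neurotrophin BDNF (chromosome 13, 58806472 to 59133970), was at 0.445, 0.195, 0.841, and 0.443 CPM in Hep-Bmal1WT and at 26.8, 30.4, and 30.4 CPM in the 3 Hep-Bmal1KO livers, and replicate 3, at 3.04 CPM, was above every Hep-Bmal1WT library. Its log2 fold change was 5.53 ± 0.65 (adjusted p = 0.0018) with 4 against 4 and 5.87 ± 0.30 (adjusted p = 1.15e-09) with 3 against 4. Tox2, a nuclear HMG-box protein, was at 0, 0.39, 0.21, and 0.222 CPM against 6.88, 9.44, and 5.13 CPM, with 1.01 CPM in replicate 3. The antiproliferative gene Btg1 was at 15.1, 18.7, 12.4, and 14.6 CPM against 38.2, 41.5, and 32.4 CPM, with 27.8 CPM in replicate 3, and rose by 1.23 ± 0.15 with 3 against 4 (adjusted p = 5.59e-05; with 4 against 4, adjusted p = 0.0034). For all 3 genes the groups did not overlap when all 8 libraries were compared.

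Grk5, a kinase of G protein-coupled receptors, rose from 0.223, 0.39, 0.421, and 1.11 CPM to 27.7, 24.3, and 20.3 CPM, with 1.01 CPM in replicate 3 (5.07 ± 0.71 with 4 against 4, adjusted p = 0.004, and 5.39 ± 0.34 with 3 against 4). The nuclear receptor coactivator Pnrc1 (1.44 ± 0.20, adjusted p = 0.0054) and the vasopressin receptor Avpr1a (1.62 ± 0.23, adjusted p = 0.0063) also rose with 4 against 4, with 109.6 and 23 CPM in replicate 3 against at most 88.6 and 14.9 CPM in Hep-Bmal1WT.

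Alas1, the rate-limiting enzyme of heme synthesis and a known output of the clock, led the genes that fell. It was at 550.1, 527, 637, and 949.9 CPM in Hep-Bmal1WT, at 67.9, 73.2, and 224 CPM in Hep-Bmal1KO replicates 1, 2, and 4, and at 292 CPM in replicate 3, so that the groups did not overlap. Its log2 fold change was -2.25 ± 0.23 (adjusted p = 0.0018) with 4 against 4 and -2.46 ± 0.20 (adjusted p = 7.22e-07) with 3 against 4. Dgkh, a diacylglycerol kinase, was at 6.01, 8.96, 7.99, and 8.64 CPM against 0.906, 1.26, and 1.28 CPM, with 1.77 CPM in replicate 3, and fell by 2.61 ± 0.33 (adjusted p = 0.0035). The lipases Ddhd2 (-1.45 ± 0.19) and Abhd6 (-1.52 ± 0.13), the inflammasome gene Nlrp6 (-0.83 ± 0.11), the ubiquitin ligase Rnf186 (-1.86 ± 0.24), and Smim22 (-2.58 ± 0.41) fell in both comparisons, with the log2 fold changes of 3 against 4 in parentheses. Ccnd1, which encodes cyclin D1, was at 97.3 and 162 CPM in male and 387 and 465 CPM in female Hep-Bmal1WT livers and at 72.5 and 74.5 CPM and 156 CPM in male and female Hep-Bmal1KO livers, with 196 CPM in the female replicate 3 (-1.05 ± 0.16, adjusted p = 0.0095).

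Several of these genes differ between the sexes, and in the 3 against 4 comparison Hep-Bmal1KO females are represented by replicate 4 alone. Elovl3, a fatty acid elongase, was at 56.1 and 66.4 CPM in the 2 Hep-Bmal1WT males and at 949 and 1009 CPM in the 2 Hep-Bmal1KO males. In females it was at 5.26 and 7.09 CPM in Hep-Bmal1WT, at 28.8 CPM in Hep-Bmal1KO replicate 4, and at 6.07 CPM in replicate 3. Within each sex the Hep-Bmal1KO livers other than replicate 3 were higher, and the log2 fold change with the term for sex was 3.25 ± 0.46 (adjusted p = 0.0063) and 3.62 ± 0.24 (adjusted p = 1.11e-07). Cyp7b1, the oxysterol hydroxylase of the alternative pathway of bile acid synthesis, was at 138 and 129 CPM against 327 and 359.9 CPM in males and at 18.3 and 14.6 CPM against 37.2 CPM in females, with 29.1 CPM in replicate 3, and rose by 1.22 ± 0.13 and 1.29 ± 0.12. Nat8, an acetyltransferase, fell from 41.4 and 41.9 CPM to 2.72 and 4.61 CPM in males and was under 1 CPM in every female, so its log2 fold change of -3.18 ± 0.45 rests on the males. Mup14, a major urinary protein, was at 387 and 473 CPM against 71.2 and 125 CPM in males (-1.89 ± 0.23), and its reads may be shared with near-identical genes of its cluster, which makes the value uncertain.

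Of genes with higher levels in Hep-Bmal1WT females than males, Cyp2a4, a steroid hydroxylase, was at 1649.9 and 1883 CPM in Hep-Bmal1WT females, 81.9 CPM in Hep-Bmal1KO replicate 4, and 1820.0 CPM in replicate 3, and in males at 29.8 and 29.4 CPM against 4.71 and 3.78 CPM. The log2 fold change of -3.99 ± 0.26 (adjusted p = 1.12e-07) therefore rests on 1 library for the Hep-Bmal1KO females, and with replicate 3 it was -1.49 ± 0.65 (adjusted p = 0.29). Its close paralog Cyp2a5, the coumarin hydroxylase, was less sex-biased and was at 3302, 2545, 2286, and 1934 CPM against 355, 259.8, and 297 CPM, with 2502 CPM in replicate 3 (-3.10 ± 0.15, adjusted p = 2.85e-09; with 4 against 4 -1.91 ± 0.60, adjusted p = 0.13). Reads of this pair may be split between them. The sulfotransferase Sult2a1, at 197 and 284 CPM in Hep-Bmal1WT females and 55.9 CPM in replicate 4, the repressor Cux2, at 36 and 45.2 CPM and 3.52 CPM, and the acyl-CoA thioesterase Acot3, at 197 and 187 CPM and 41.7 CPM, were likewise lower in the female replicate 4. Replicate 3 had 391, 33.2, and 190.3 CPM of these. With all 8 libraries none of the 3 passed, Sult2a1 (adjusted p = 0.97), Cux2 (adjusted p = 0.26), and Acot3 (adjusted p = 0.18). Of 15 growth hormone and sex-biased genes tested, 4 rose and 5 fell without replicate 3 (5% and 4.82% of all genes), and 3 rose and 1 fell with it (1.01% and 0.476%).

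Without replicate 3, the smallest p among genes with a log2 fold change of at least 1 in size belonged to Lpl, the lipoprotein lipase (chromosome 8, 68880555 to 68906932). It was at 42.3, 29.4, 27.1, and 21.9 CPM in Hep-Bmal1WT livers, at 414, 383, and 305 CPM in Hep-Bmal1KO replicates 1, 2, and 4, and at 20.5 CPM in replicate 3, a log2 fold change of 3.53 ± 0.13 (adjusted p = 5.05e-10) and, with all libraries, 3.13 ± 0.53 (adjusted p = 0.014). Clpx, a subunit of a mitochondrial protease, was at 53.4, 52, 44.4, and 41.7 CPM against 309, 279, and 332 CPM, with 46.3 CPM in replicate 3. Insig2, which holds the SREBP precursors in the endoplasmic reticulum, was at 59.4, 67.8, 56.6, and 52.3 CPM against 291, 321, and 284 CPM, with 49.9 CPM in replicate 3. In both the 3 Hep-Bmal1KO livers were apart from all others, and the log2 fold changes were 2.66 ± 0.12 for Clpx (adjusted p = 1.15e-09) and 2.30 ± 0.10 for Insig2 (adjusted p = 1.58e-09).

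The coenzyme Q kinase Coq8a (2.08 ± 0.11), Ly6e (1.82 ± 0.10), and the noncoding gene Hectd2os (3.24 ± 0.14) had p-values of similar size and passed the threshold in both comparisons. Ly6e and Hectd2os did not overlap between the genotypes with all 8 libraries, replicate 3 being at 149 and 115 CPM against at most 125 and 95.3 CPM in Hep-Bmal1WT livers. The use of strand in counting is not given in the sources used here, so reads of Hectd2os and of a gene on the other strand may not be told apart. Among the genes that fell, the coenzyme Q binding protein Coq10b went from 102, 89.8, 102, and 115 CPM to 23, 30.2, and 28.4 CPM (-1.90 ± 0.14), Mcm10, a replication factor, from 101, 77.1, 37.9, and 40.8 CPM to 14.9, 17.8, and 9.13 CPM (-2.35 ± 0.16), the proprotein convertase Pcsk4 from 43, 33.3, 50.9, and 61.4 CPM to 7.43, 7.97, and 10.9 CPM (-2.35 ± 0.18), and Nrep from 28.9, 35.3, 58.5, and 81.8 CPM to 5.25, 5.66, and 13.3 CPM (-2.49 ± 0.19). Replicate 3 was within the Hep-Bmal1WT range in all 4, and Mcm10 missed the threshold with all 8 libraries (adjusted p = 0.077).

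**Figure D3:**
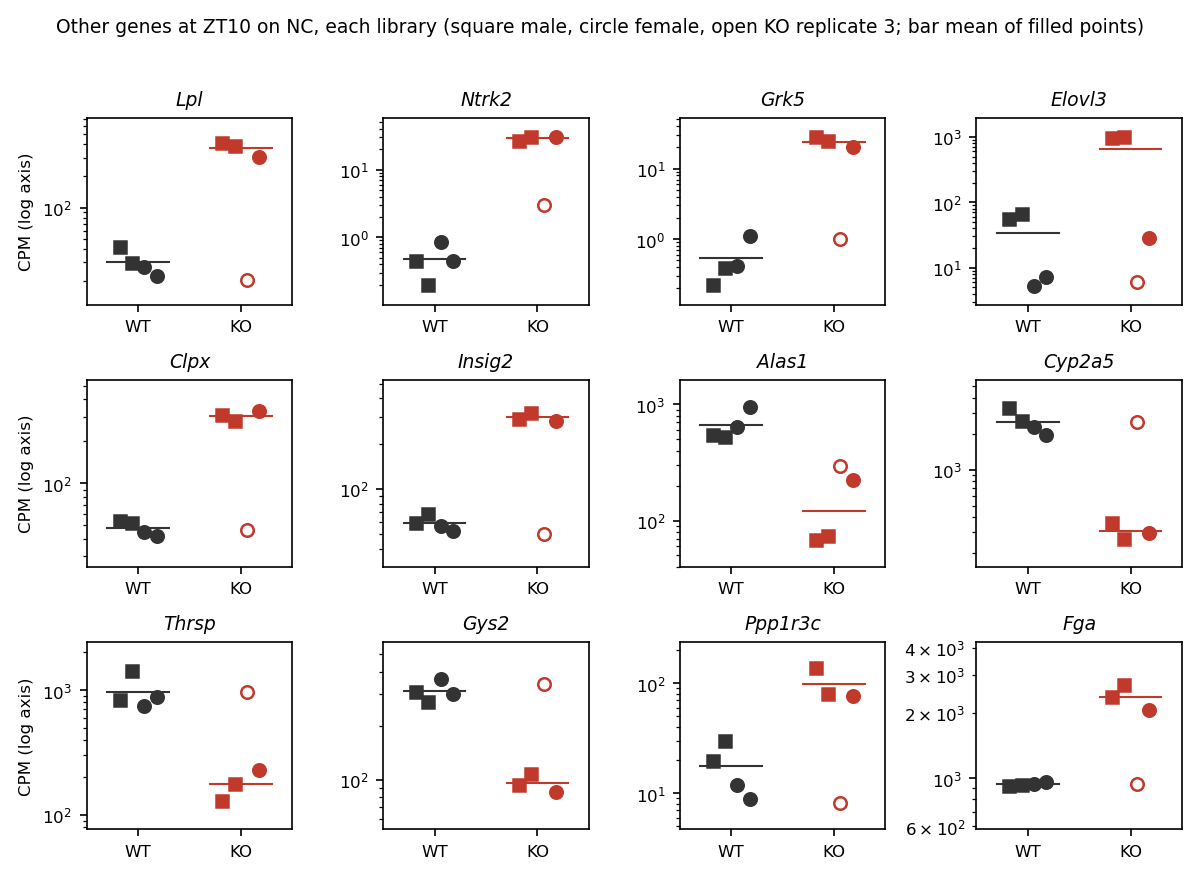
CPM of 12 genes outside the core clock in each library at ZT10 on NC (log axis), Hep-Bmal1WT in black and Hep-Bmal1KO in red, squares for males and circles for females, the open circle for KO replicate 3, and the bar for the mean of the filled points. Replicate 3 lies within or next to the black points for Lpl, Clpx, Insig2, Cyp2a5, Thrsp, Gys2, Ppp1r3c, and Fga, and outside them for Ntrk2 and Alas1.

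Of 20 cholesterol synthesis enzymes, 4 rose and none fell without replicate 3 (median 0.33), and 1 rose with it, against 5% and 1.01% of all genes. Among the 4 were mevalonate kinase Mvk (0.97 ± 0.19), the lanosterol demethylase Cyp51 (0.55 ± 0.13), and the sterol reductase Tm7sf2 (0.67 ± 0.11). Tm7sf2 was at 105, 102, 116, and 101 CPM in Hep-Bmal1WT and at 180.2, 150.2, and 175 CPM in the 3 Hep-Bmal1KO livers, and replicate 3, at 138 CPM, was above every Hep-Bmal1WT library. Of 14 genes of SREBP2 control and cholesterol uptake, 3 rose, with Insig2 and the HDL receptor Scarb1 (1.08 ± 0.12) among them, and 5 fell (5% and 4.82% of all genes), with the sterol carrier Stard4 (-0.92 ± 0.13) and the lysosomal transporter Npc1 (-0.98 ± 0.14) among them, while with all 8 libraries 2 rose and none fell. Of 10 genes of sterol efflux, Osbpl3, at most 5.26 CPM, was the 1 that passed without replicate 3 (-3.39 ± 0.83, a size that depends on the prior count). This is a share near the 9.82% of all genes called in either direction. The transporters Abca1 (-0.13 ± 0.11) and Abcg8 (0.20 ± 0.20) did not pass. With 4 against 4 the test missed the threshold for Mvk (adjusted p = 0.072), Cyp51 (adjusted p = 0.064), Stard4 (adjusted p = 0.26), Npc1 (adjusted p = 0.2), and Osbpl3 (adjusted p = 0.058).

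Of 19 genes of bile acid synthesis, transport, and control, 3 rose and 2 fell without replicate 3, against 5% and 4.82% of all genes, and 2 rose and none fell with it. Besides Cyp7b1, the muricholic acid enzyme Cyp2c70 was at 217, 263, 391, and 327 CPM in Hep-Bmal1WT and 479.7, 527, and 627 CPM in Hep-Bmal1KO livers, with 411 CPM in replicate 3, and the groups did not overlap with all 8 libraries (0.95 ± 0.11; 4 against 4 0.80 ± 0.15, adjusted p = 0.024). The FGF coreceptor Klb (-1.23 ± 0.22) and the bile acid receptor Nr1h4 (-0.59 ± 0.11) fell without replicate 3 and missed the threshold with it, Klb (adjusted p = 0.11) and Nr1h4 (adjusted p = 0.13).

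Of 22 genes tested for fatty acid and triglyceride synthesis, 3 rose and 10 fell without replicate 3 (median -0.40), against 5% and 4.82% of all genes, and 1 rose with it. Thrsp, a regulator of lipogenesis, was at 837, 1429, 739, and 873 CPM in Hep-Bmal1WT and at 129, 176, and 227 CPM in Hep-Bmal1KO livers 1, 2, and 4, with 955 CPM in replicate 3 (-2.46 ± 0.21, adjusted p = 1.79e-06; 4 against 4 -1.65 ± 0.49, adjusted p = 0.11). Fatty acid synthase Fasn was at 489.7, 840.1, 666, and 699 CPM against 328, 250.0, and 258 CPM (-1.29 ± 0.15, adjusted p = 4.37e-05), and the phosphatidate phosphatase Lpin2 at 204, 189.6, 178, and 141 CPM against 73.5, 67.5, and 63.6 CPM (-1.43 ± 0.12, adjusted p = 9.60e-07). Replicate 3 was within the Hep-Bmal1WT range of all 3, and Fasn (adjusted p = 0.058) and Lpin2 (adjusted p = 0.11) also missed the threshold with 4 against 4.

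For fatty acid oxidation, ketogenesis, and targets of PPAR-alpha, 3 of 29 rose and 8 fell without replicate 3 (median -0.20), against 5% and 4.82% of all genes, and none rose and 2 fell with it. The peroxisomal thiolase Acaa1b was at 1666, 1599, 1380.5, and 1326 CPM against 861, 661, and 858 CPM, with 1023 CPM in replicate 3, so the groups did not overlap (-0.94 ± 0.11; 4 against 4 -0.81 ± 0.14, adjusted p = 0.015). The pantetheinase Vnn1 (-1.25 ± 0.13) and the fatty acid hydroxylase Cyp4a10 (-1.54 ± 0.27) also fell, the second with overlapping groups, 410.5, 292, 661, and 605 CPM against 119, 45.1, and 361 CPM, and with reads that may be shared with its paralogs. Vnn1 missed the threshold with all 8 libraries (adjusted p = 0.057).

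Of 25 genes of glucose and glycogen metabolism, 5 rose and 12 fell without replicate 3 (median -0.38), against 5% and 4.82% of all genes, and 2 rose and 1 fell with it (1.01% and 0.476%). Gys2, the glycogen synthase of liver, was at 307, 272, 363, and 302 CPM in Hep-Bmal1WT and at 93.8, 108, and 84.9 CPM in the 3 Hep-Bmal1KO livers, with 339.9 CPM in replicate 3 (-1.71 ± 0.13, adjusted p = 4.82e-07; 4 against 4 -1.08 ± 0.31, adjusted p = 0.1). Subunits that target protein phosphatase 1 to glycogen moved in opposite directions, and both passed in both comparisons. Ppp1r3c was at 19.8, 29.6, 11.8, and 8.86 CPM against 137, 79.9, and 76.7 CPM (2.39 ± 0.21), and Ppp1r3g at 8.24, 7.99, 12.6, and 6.65 CPM against 0.362, 0.839, and 0.481 CPM (-3.96 ± 0.47). Tkfc, a kinase of fructose metabolism (-0.84 ± 0.12), fell, and Igfbp1, an insulin-repressed binding protein of IGF (1.42 ± 0.33), rose with overlapping groups, both missing the threshold with 4 against 4 (adjusted p = 0.075 and 0.097).

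Of 35 genes of amino acid catabolism and the urea cycle, 13 rose and 3 fell without replicate 3 (median 0.061), and 5 rose with it, against 5% and 1.01% of all genes. Gldc, the glycine decarboxylase, was at 46.3, 50.7, 50.3, and 38.6 CPM against 132, 149.7, and 128 CPM, and replicate 3, at 64.3 CPM, was above the Hep-Bmal1WT range (1.52 ± 0.12, adjusted p = 6.85e-07; 4 against 4 1.34 ± 0.19, adjusted p = 0.0063). Agxt, which converts glyoxylate to glycine (1.09 ± 0.12), ornithine aminotransferase Oat (0.97 ± 0.11), the ornithine transporter Slc25a15 (0.92 ± 0.11), and the urea cycle enzymes Ass1 (0.62 ± 0.10) and Cps1 (0.51 ± 0.10) rose, and of these Slc25a15 (adjusted p = 0.044) and Cps1 (adjusted p = 0.044) passed with all 8 libraries too, whereas Agxt (adjusted p = 0.07), Oat (adjusted p = 0.072), and Ass1 (adjusted p = 0.061) did not.

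In the list of xenobiotic receptors and detoxification enzymes, 14 of 41 rose and 13 fell without replicate 3, against 5% and 4.82% of all genes, and 6 rose and 2 fell with it. The glutathione transferases Gstm2, from 80.4, 75.6, 81.4, and 58.5 CPM to 440.2, 322, and 442 CPM (2.43 ± 0.14), and Gstm6, from 86.6, 92.2, 66.7, and 59.2 CPM to 303, 248, and 257 CPM (1.77 ± 0.12), rose in both comparisons, with reads that their paralogs may share. Por, the reductase that serves the cytochromes P450, fell from 455, 432, 501, and 588 CPM to 125, 116, and 252 CPM, with 528 CPM in replicate 3 (-1.57 ± 0.14, adjusted p = 2.08e-06; 4 against 4 -1.16 ± 0.26, adjusted p = 0.046), alongside Alas1. Of 13 genes of heme, NAD, and one-carbon metabolism, 2 rose and 3 fell without replicate 3, against 5% and 4.82% of all genes, with Alas1 and Nampt among the latter. With replicate 3, 1 rose and 1 fell, against 1.01% and 0.476%. Of 11 carboxylesterases, Ces2e rose (0.49 ± 0.11) and 4 fell without replicate 3, against 5% and 4.82% of all genes. Ces1b (-1.54 ± 0.18), Ces1d (-0.93 ± 0.13), and Ces1e (-0.76 ± 0.11) were among the latter, and none passed with replicate 3. Reads of the carboxylesterases may be split among paralogs.

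The acute phase list held the 3 chains of fibrinogen, the precursor of clots, all of which rose without replicate 3. Fga was at 916, 927, 939, and 958 CPM in Hep-Bmal1WT and 2367, 2682, and 2061 CPM in Hep-Bmal1KO livers, with 938 CPM in replicate 3 (1.31 ± 0.10, adjusted p = 4.67e-07), and Fgg (0.99 ± 0.12) and Fgb (0.78 ± 0.13) rose as well. With 4 against 4, Fga and Fgg passed (adjusted p = 0.029 and 0.041) and Fgb did not (adjusted p = 0.091). Serpina3n rose (0.76 ± 0.16) with overlapping groups. Of the 16 members 4 rose and 1 fell without replicate 3 (median 0.40), against 5% and 4.82% of all genes, and 2 rose with all 8 libraries, against 1.01%. Of 12 glucocorticoid-responsive genes, 3 rose and 2 fell without replicate 3, against 5% and 4.82% of all genes, and 2 rose with it, against 1.01%. The direction differed between members: the kinase Sgk1 was at 8.9, 9.35, 17.9, and 16 CPM against 43.7, 77.4, and 39.6 CPM (2.03 ± 0.27), whereas Fkbp5, a chaperone of the glucocorticoid receptor, was at 24.7, 25.7, 38.5, and 43.4 CPM against 8.88, 10.3, and 20.3 CPM, with 65.3 CPM in replicate 3 (-1.23 ± 0.16). With 4 against 4 the test missed the threshold for Fkbp5 (adjusted p = 0.44) and Serpina3n (adjusted p = 0.095).

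Of 17 genes of the unfolded protein response, 4 fell and none rose without replicate 3, against 4.82% and 5% of all genes, and none passed with all libraries. Trib3, a pseudokinase (-2.22 ± 0.38), Herpud1 (-0.80 ± 0.12), Atf4 (-0.47 ± 0.10), and the hepatocyte factor Creb3l3 (-0.34 ± 0.10) were the 4. Of 14 antioxidant targets of NRF2, 1 rose, the peroxiredoxin Prdx1 (0.55 ± 0.09), and 3 fell, catalase Cat (-0.55 ± 0.09) among them, against 5% and 4.82% of all genes, and none passed with all 8 libraries. Of 13 temperature-responsive genes 1 fell, Hspb1 (-1.61 ± 0.18; 4 against 4 adjusted p = 0.065), a share near that of all genes, and the cold-inducible Cirbp (0.59 ± 0.22) and the chaperone Hspa8 (-0.37 ± 0.14) missed the threshold. Of 15 cell cycle genes, 3 rose and 3 fell without replicate 3, against 5% and 4.82% of all genes, and 1 rose and 1 fell with it, against 1.01% and 0.476%. Without replicate 3, the replication helicase subunit Mcm6 (1.37 ± 0.17, with 4 against 4 edgeR adjusted p = 0.062) and Cdkn1a were among those that rose, and Ccnd1 and Wee1 among those that fell.

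**Figure D4:**
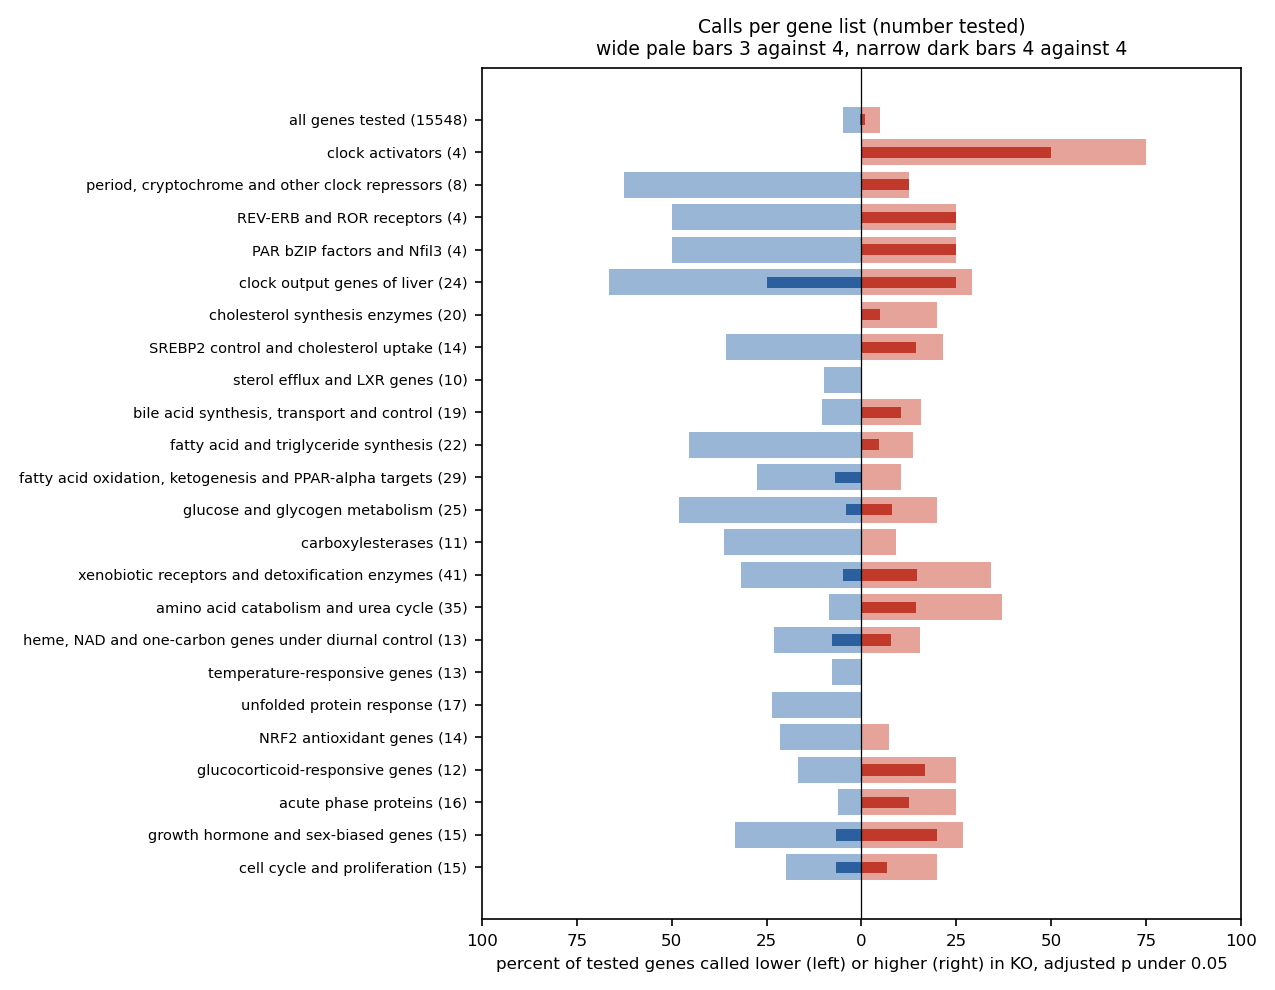
Percent of the tested genes of each list (number tested in parentheses) that were called lower (left, blue) or higher (right, red) in Hep-Bmal1KO livers at ZT10 on NC, with wide pale bars for 3 against 4 and narrow dark bars for 4 against 4 libraries. All genes tested stand at the top, with 5% higher and 4.82% lower for 3 against 4, and the clock output genes reach 7 higher and 16 lower of 24.

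Albumin, the marker of hepatocytes whose promoter drives Cre in these mice, differed between the groups. Alb was at 102611 and 107809 CPM in male and 157382 and 161599 CPM in female Hep-Bmal1WT livers. It was at 48794 and 49185 CPM in male Hep-Bmal1KO livers and at 86893 CPM in replicate 4, while replicate 3 had 170750.0 CPM. Its log2 fold change was -1.03 ± 0.09 (adjusted p = 2.14e-06) for 3 against 4 and -0.70 ± 0.21 (adjusted p = 0.12) for 4 against 4. Alb alone took 8.99% to 13.9% of the counts of Hep-Bmal1WT and 4.28% to 14.2% of those of Hep-Bmal1KO libraries. Of the 10 hepatocyte markers tested, 3 others, Fgb, Ass1, and Cps1, rose without replicate 3, and 1 of them, Cps1, with it, against 5% and 1.01% of all genes.

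Markers of other cells were summed and tested singly. None of 10 Kupffer cell, 7 recruited myeloid, 10 lymphocyte, and 10 stellate cell markers passed in either comparison, with log2 fold changes of -0.16 ± 0.12 for Clec4f and 0.25 ± 0.15 for C1qc of Kupffer cells and 0.24 ± 0.14 for Dcn of stellate cells without replicate 3. Over all genes, 9.82% passed in either direction without replicate 3 and 1.49% with it. Of 9 endothelial markers 1, Pecam1, fell without replicate 3 (-0.92 ± 0.23; 4 against 4 adjusted p = 0.074), a share near the 9.82% of all genes. The summed CPM of the 5 cholangiocyte markers tested ran from 42.5 to 57.8 in Hep-Bmal1WT and from 75.7 to 98.5 in Hep-Bmal1KO livers, replicate 3 being at 82.5 (exact permutation test, two-sided p = 0.029, the smallest that 4 against 4 allows, and 0.26 after adjustment over 9 marker lists). Of its members Spp1 (0.61 ± 0.14) and Sox9 (2.28 ± 0.27) rose in both comparisons, against 5% and 1.01% of all genes, while Krt19, Krt7, and Epcam did not pass. Mean levels were 40.3 CPM of Spp1 and 4.51 CPM of Sox9 in Hep-Bmal1WT, where the summed mean was 49.3 CPM. Without replicate 3 they were 58.9 and 24.1 CPM in Hep-Bmal1KO livers, where it was 88 CPM. The sum therefore says little about the other members. Sox9 was at 2.23, 7.79, 3.36, and 4.65 CPM against 28.6, 26.8, and 17 CPM, with 5.57 CPM in replicate 3. Erythroid markers summed to 644 to 1169.6 CPM in Hep-Bmal1WT and 1004 to 2163 CPM in Hep-Bmal1KO livers, with 1004 CPM in replicate 3, and 4 of 5 rose without replicate 3 and 2 with it, against 5% and 1.01% of all genes. Of 7 pancreas and adipose markers 1, Cela1, rose in both comparisons (1.66 ± 0.17), against 5% and 1.01% of all genes, while the defining Adipoq and Pnlip did not pass. Their part in the results above was not tested.

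Whether a difference was particular to ZT10 was tested as the genotype difference at ZT10 minus its mean over ZT 2, 6, 14, 18, and 22 on NC. With all 48 NC libraries, 0 genes passed in edgeR's test (1266 at an unadjusted p under 0.05), and the DESeq2 Wald test gave 30. Without replicate 3 of Hep-Bmal1KO at ZT10, 126 genes passed (0.81%), 92 of them with a higher and 34 with a lower difference at ZT10. Without the 4 NC libraries that lay nearer the other genotype, 1 each at ZT10 and ZT18 and 2 at ZT6, 159 passed (1.02%), 116 higher (0.746%) and 43 lower (0.277%), and of the 44 clock genes 8 higher and 8 lower. The values that follow are from this last fit. Its left-out libraries were picked in part by the 10 clock genes that set the positions, Arntl, Clock, Cry1, and Dbp among them. Calls of those genes are therefore helped by that choice.

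Arntl had a difference of 3.53 ± 0.46 on the log2 scale (adjusted p = 7.45e-06): it was higher in Hep-Bmal1KO livers at ZT10 by 3.37 ± 0.44 and lower at ZT2 by 1.09 ± 0.23 and at ZT22 by 1.04 ± 0.23. The mean over the other 5 ZTs was -0.16 ± 0.13. Over those 5 ZTs, 1080 genes (6.95%) were higher and 925 (5.95%) lower in Hep-Bmal1KO livers in the fit without replicate 3, 12.9% in either direction. Clock (1.01 ± 0.16, adjusted p = 2.62e-04) and Nfil3 (1.82 ± 0.33, adjusted p = 0.0014) also had their highest difference at ZT10, with 1.28 ± 0.15 and 2.09 ± 0.31, among the 6 ZTs. Cry1 passed (0.97 ± 0.24, adjusted p = 0.029), but its difference was higher at ZT6, 3.25 ± 0.25, than at ZT10, 2.38 ± 0.22. Clpx (1.61 ± 0.21), the solute carrier Slc45a3 (2.21 ± 0.27), and Gldc (1.13 ± 0.16) were with Arntl the 4 of smallest p among the genes with a higher difference, with adjusted p = 7.44e-06, 5.69e-06, and 2.47e-05. Their genotype differences were 2.71 ± 0.19, 2.65 ± 0.25, and 1.57 ± 0.15 at ZT10 and 2.18 ± 0.18, 0.66 ± 0.20, and 0.93 ± 0.13 at ZT14, in the same order.

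Among the genes in the other direction were Tef (-1.18 ± 0.16, adjusted p = 1.63e-05), Coq10b (-1.54 ± 0.25, adjusted p = 2.73e-04), and Per3 (-2.38 ± 0.45, adjusted p = 0.002). Tef was lower in Hep-Bmal1KO livers at ZT10 by 1.27 ± 0.15 and higher at ZT2 by 1.18 ± 0.16. All of these had a difference of the same sign at ZT14, -1.05 ± 0.13 for Tef, -1.36 ± 0.22 for Coq10b, and -2.02 ± 0.38 for Per3. Dbp passed as well (-1.92 ± 0.38, adjusted p = 0.0039), with genotype differences of -2.55 ± 0.39 at ZT6, -2.96 ± 0.35 at ZT10, and -2.41 ± 0.34 at ZT14. In Hep-Bmal1WT livers the mean level of Dbp on NC was highest at ZT10, 265 ± 52.9 CPM (SD, n = 4), and that of Clpx lowest, 47.9 ± 5.74 CPM (SD, n = 4), while Clpx in Hep-Bmal1KO livers was at 307 ± 26.5 CPM (SD, n = 3).

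**Figure D5:**
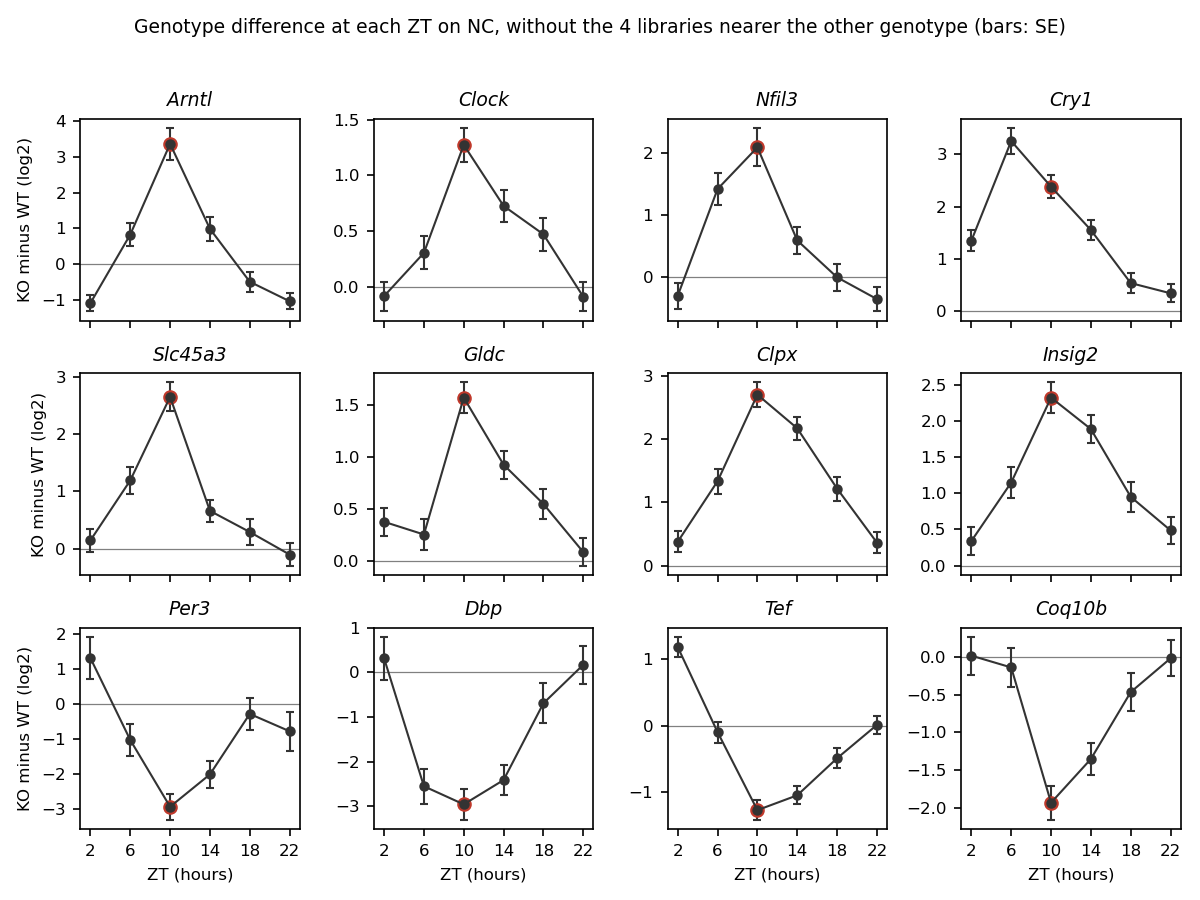
Genotype difference, Hep-Bmal1KO minus Hep-Bmal1WT on the log2 scale, of 12 genes at each ZT on NC, fitted without the 4 libraries nearer the other genotype, with ZT10 ringed in red and bars for the SE. The differences of Arntl, Clock, Nfil3, Slc45a3, Gldc, Clpx, and Insig2 are highest at ZT10 and those of Per3, Dbp, Tef, and Coq10b lowest there, while that of Cry1 is highest at ZT6.

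On cdHFD at ZT10, other mice of the same genotypes, age range, and numbers per sex were compared, 4 against 4. There 8 genes (0.0515%) passed with all libraries, 2 higher (0.0129%) and 6 lower (0.0386%), and 684 (4.4%), 394 higher (2.53%) and 290 lower (1.87%), without Hep-Bmal1WT replicate 3 of that diet, which lay nearer Hep-Bmal1KO. Of the 1527 genes called on NC without replicate 3, 1002 (65.6%) had the same sign on cdHFD without that library, against 51.9% of all genes tested, 152 passed there in the same and 17 in the opposite direction. Of the 38 clock genes among them, 26 had the same sign and 6 passed on cdHFD without that library. With all 8 cdHFD libraries 0 of the 44 clock genes passed. The test of the difference between the diets called 1 gene with all 16 libraries (0.00643%), Dgkh, whose log2 fold change was lower on NC than on cdHFD by 3.45 ± 0.44 (adjusted p = 0.0029, with 1769 genes at an unadjusted p under 0.05; the DESeq2 Wald test gave 125). On cdHFD Dgkh was at 3.23, 5, 2.57, and 3.41 CPM in Hep-Bmal1WT and at 9.27, 6.81, 4.44, and 4.87 CPM in Hep-Bmal1KO livers, overlapping groups with a difference opposite in sign to that on NC, a log2 fold change of 0.83 ± 0.25 that missed the threshold (adjusted p = 0.22). The test called 354 genes (2.28%) without replicate 3 of Hep-Bmal1KO on NC, and 305 (1.96%), 196 higher (1.26%) and 109 lower (0.701%) on NC, without the discordant library of each diet. Of the 44 clock genes 23 passed in this last fit and 0 with all 16 libraries. Clock genes also set the positions by which the discordant libraries were picked, so their calls are helped by that choice.

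For several genes the genotype difference on cdHFD was near 0 at this time. Dbp was at 54.2, 65.8, 20.3, and 46.1 CPM in Hep-Bmal1WT and at 53.4, 55.5, 54.7, and 57.9 CPM in Hep-Bmal1KO livers, and Clpx at 62.8, 73.5, 189.5, and 93.9 CPM and at 105, 75.3, 103, and 102 CPM. Hep-Bmal1WT replicate 3 stood apart from the other 7 libraries in both. Without it the log2 fold changes on cdHFD were 0.04 ± 0.14 for Dbp, 0.31 ± 0.14 for Clpx, -0.10 ± 0.19 for Cry1, -0.14 ± 0.35 for Arntl, -0.02 ± 0.14 for Nr1d2, and 0.01 ± 0.12 for Insig2, none of them past the threshold. The differences between the diets, NC minus cdHFD, were -2.86 ± 0.26 (adjusted p = 6.35e-06), 2.37 ± 0.21 (adjusted p = 5.72e-06), 2.53 ± 0.32 (adjusted p = 1.67e-04), 3.46 ± 0.56 (adjusted p = 0.002), -2.39 ± 0.25 (adjusted p = 1.39e-05), and 2.31 ± 0.17 (adjusted p = 5.43e-07) in the same order. The clock genes that passed on both diets without the discordant library of each included Npas2 (3.06 ± 0.53 on cdHFD), Usp2 (-0.85 ± 0.18), Gys2 (-0.87 ± 0.13), Dtx4 (0.77 ± 0.19), and Rgs16 (-1.69 ± 0.40). All were in the direction seen on NC. With all 8 libraries of a diet, none of them passed on cdHFD, and Npas2 alone of those named passed on NC. The difference between the diets passed for Usp2 (adjusted p = 0.03), Gys2 (adjusted p = 0.043), and Dtx4 (adjusted p = 0.027) and not for Npas2 (adjusted p = 0.31) and Rgs16 (adjusted p = 0.14). Hlf, which had not passed on NC, was lower in Hep-Bmal1KO livers on cdHFD without Hep-Bmal1WT replicate 3 (-0.72 ± 0.19, edgeR adjusted p = 0.046) and did not pass with it. For Hlf the difference between the diets missed the threshold (adjusted p = 0.43). Without Hep-Bmal1WT replicate 3, Lpl kept a difference on cdHFD (0.96 ± 0.19, edgeR adjusted p = 0.012). It was smaller than on NC by 2.60 ± 0.26 without the discordant library of each diet (adjusted p = 1.17e-05). With all 8 cdHFD libraries the groups of Lpl overlapped, at 180, 194, 439, and 232 CPM in Hep-Bmal1WT and 485, 491, 331, and 250 CPM in Hep-Bmal1KO livers. Lgalsl (2.53 ± 0.24), Nrep (-2.24 ± 0.27), and Nr1d1 (-3.17 ± 0.41) also differed between the diets.

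In the controls the ZT with the highest mean level of Dbp was not the same on the 2 diets. In Hep-Bmal1WT livers on cdHFD the mean level of Dbp was highest at ZT6, 175 ± 17 CPM (SD, n = 4), and at ZT10 it was 55.4 ± 9.91 CPM (SD, n = 3), whereas on NC it was highest at ZT10. In Hep-Bmal1KO livers on cdHFD Dbp was at 45.8 ± 16.1 CPM at ZT6 (SD, n = 4) and 55.4 ± 1.9 CPM at ZT10 (SD, n = 4). The groups on cdHFD thus did not overlap at ZT6 and overlapped at ZT10. The part of this in the differences between the diets was not tested.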

How the data were processed

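Liver RNA of the 96 mice was sequenced by BRB-seq. The authors deposited a table of raw counts per gene, made from 3′ reads aligned to mm10. The submitters' processing notes name STAR, HTSeq, featureCounts, and DESeq2 without their roles. From these counts, genes with at least 100 counts over the 96 libraries were tested, 15548 of 55487. Genotypes were compared at ZT10 with edgeR 4.0.16 in R 4.3.3 (quasi-likelihood F test, newer method, TMM scaling, a term for sex, Benjamini-Hochberg adjustment, threshold 0.05), with DESeq2 1.42.0 as an alternative. The SE of a log2 fold change was taken as its size divided by the square root of F, and log2 CPM used a prior count of 2. That value did not enter the fitted log2 fold changes, which used the default prior count of edgeR. ZTs and diets were compared by interaction contrasts. Marker sums were compared by exact permutation tests, which cannot go below 0.029. Each mouse gave 1 library, and replicates were numbered in accession order.

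The libraries, members, and gene lists were chosen with earlier results of these data known. The genes named were all of the clock lists, the 10 of smallest p in each direction with 4 against 4 and with 3 against 4 libraries (log2 fold change of at least 1 in size in the latter), up to 4 of smallest p from each other list, and the top 4 higher and 4 lower genes of both interaction tests. For the last, the rule was applied to the fit without libraries nearer the other genotype once the fit with all had given too few calls. Genes without a name were passed over, and some genes are not reported here. The position of a library is its projection on the line between the median profiles of the genotypes, which replaced a mean of ratios after the data had been seen because some denominators were near 0. Gene coordinates are those of RefSeq for GRCm38.p6, the assembly of mm10, where 14841 genes matched by symbol or synonym. Alternatives were other scaling, test, filters, threshold, covariate, and libraries. Scripts were tested on simulated data. Libraries held between 4759056 and 6845207 counts.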

Additional observations from a re-analysis of the deposited data

Results flagged for a closer look

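In 32 of 268 groups of 4 libraries, 1 for each genotype and each of the 134 genes named in the report, the highest or lowest library lay far from the others by Dixon's ratio, the gap to the nearest library divided by the range of the group, past the critical value at the 95% level. Chance alone gives this in about 1 of 20 groups. In 27 of the 32 the library was Hep-Bmal1KO replicate 3, and as 121 of the 134 genes were called in the comparison without that library, this follows in part from the choice of genes. It was the highest of its group, with the ratio in parentheses, for Per3 (0.968), Ciart (0.861), Bhlhe41 (0.873), Nr1d1 (0.918), Nr1d2 (0.938), Dbp (0.945), Tef (0.856), Usp2 (0.877), Rgs16 (0.938), Upp2 (0.866), Coq10b (0.901), Gys2 (0.91), Cyp2a5 (0.957), Cyp2a4 (0.957), Pcsk4 (0.878), Stard4 (0.899), Nr1h4 (0.877), Lpin2 (0.916), Thrsp (0.881), Ppp1r3g (0.923), Ces1e (0.853), Trib3 (0.91), Cux2 (0.894), and Sult2a1 (0.859). It was the lowest for Ntrk2 (0.867), Insig2 (0.862), and Lgalsl (0.864). In the other 5 the library was Hep-Bmal1WT replicate 4 for Cry1, the highest at 0.889, Hep-Bmal1WT replicate 1 for Fgg, the lowest at 0.889, Hep-Bmal1KO replicate 1 for Smim22, the lowest at 0.8295, and Hep-Bmal1KO replicate 4 for Oat and Ass1, the highest at 0.859 and 0.88.

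The genotype difference at ZT10 on NC differed from its mean over the other 5 ZTs, in edgeR's test without the libraries nearer the other genotype, for Arntl (3.53), Clock (1.01), Per3 (-2.38), Cry1 (0.97), Dbp (-1.92), Tef (-1.18), Nfil3 (1.82), Coq10b (-1.54), Clpx (1.61), Gldc (1.13), and Slc45a3 (2.21), each value being the difference of the 2 log2 fold changes. It differed between NC and cdHFD at ZT10, in the same test, for Arntl (3.46), Cry1 (2.53), Nr1d1 (-3.17), Nr1d2 (-2.39), Dbp (-2.86), Dgkh (-3.56), Lpl (2.60), Clpx (2.37), Insig2 (2.31), Nrep (-2.24), and Lgalsl (2.53). With all libraries in, Dgkh was the 1 gene of these that passed, in the test between the diets, and none passed in the test between ZTs.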

How the results depend on the processing

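The labels carry no replicate numbers, and the libraries of each group share plate rows A to D. The plate row as a replicate block, added after the data had been seen in place of the term for sex, which it holds, gave 105 higher and 60 lower genes with 4 against 4 and 418 and 421 with 3 against 4. Within a sex the difference between rows in 1 genotype had a Pearson correlation across 15548 genes with that in the other of -0.0075 in males and -0.030 in females. The female value cannot show or exclude a shared effect of rows, because its Hep-Bmal1KO pair holds the discordant replicate 3. The rows are taken as shared labels only. With 4 against 4 libraries, the 157 higher and 74 lower genes became 302 and 161 by the DESeq2 Wald test, 344 and 251 with no filter beyond 1 count, 16 and 3 with no term for sex, 298 and 138 with all NC libraries in the fit, and 344 and 215 at an adjusted p under 0.1. Among the alternatives added after the data had been seen, edgeR's default quasi-likelihood method gave 235 and 123, a robust estimate of the spread 97 and 53, males alone 325 and 309, and females alone 0 and 0. Leaving out 1 library gave 4 to 777 higher and 5 to 750 lower genes. The share of calls that were higher was 68% with all libraries, 84.2% with no term for sex, 57.8% with no filter, and 28.6% to 75% over the libraries left out, with 28.6% without Hep-Bmal1WT replicate 1, 44.4% without its replicate 2, and 50.9% without Hep-Bmal1KO replicate 3. With 3 against 4, dropping the term for sex gave 404 and 369 in place of 777 and 750, and leaving out a further library gave 368 to 719 and 387 to 657, while the other alternatives than these and the block stayed within 1.5 times. The test of ZT10 against the other ZTs gave 0 genes, 126 without Hep-Bmal1KO replicate 3, 159 without every library nearer the other genotype, 30 by DESeq2, and 0 to 126 when 1 library was left out. The test between the diets gave 1, 354, 305, and 125 under the same settings, 2 without Hep-Bmal1WT replicate 2, and 1 to 354 over the libraries left out. The cause of these changes was not tested.

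Among the 134 genes named, 2 that passed the threshold turned sign under an alternative: Nat8 was at 0.12 (adjusted p = 1, edgeR) in females alone, and Sult2a1 at 0.078 (adjusted p = 1) in the 3 against 4 comparison without Hep-Bmal1KO replicate 4, its range over the libraries left out being -2.05 to 0.078. Of the genes that did not pass, Rora among them, 9 with 4 against 4 and 4 with 3 against 4 had the other sign under at least 1 alternative. With 3 against 4, DESeq2 took 3 genes below the threshold, the fit of all NC libraries 15, and the fit with no term for sex 23. With 4 against 4, leaving out Hep-Bmal1WT replicate 1 took 50 below it and leaving out replicate 2 took 51. At this depth a gene at 1 CPM has few reads per library, and their fold changes depend on the prior count.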
